A study of Homo sapiens with 6 samples.

Results

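The genes described are 7 matrix metalloproteinases (MMP13, MMP1, MMP2, MMP7, MMP10, MMP14 and MMP15) and 3 tissue inhibitors of metalloproteinases (TIMP1, TIMP2 and TIMP3). They are 10 of the 16306 genes in the deposited table, and all 10 were found by gene symbol. They were selected on the read counts of this very comparison, so their differences between groups are given as a description. The fit across all genes includes them, but no p-value is given for a member. RNA-seq was performed on PC9, an established line of human EGFR-mutant lung adenocarcinoma cells. The 3 sh-NC libraries come from cells with a negative control shRNA, and the 3 shRBM10 libraries from cells with an shRNA against RBM10, which encodes an RNA-binding splicing regulator. The study asks how loss of RBM10 alters these cells in relation to brain metastasis. The study used more than 1 shRNA against RBM10, and neither the labels nor its methods say which of them these libraries carry or whether the cells were clones or pools. The libraries are called sh-NC replicates 1 to 3 and shRBM10 libraries A to C, of which library A is replicate 1 and the other two carry no replicate number.

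Matrix metalloproteinases are zinc-dependent endopeptidases that cut collagens and other proteins of the extracellular matrix, and are made as inactive proenzymes that other proteases switch on. TIMPs bind the active site and block it, and TIMP3 differs from the others in that it is held in the matrix and also inhibits several ADAM proteases. In carcinomas these enzymes are known for matrix remodelling during invasion, and much of the MMP protein of a tumor is made by stromal cells rather than by the cancer cells.

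The MMPs share a catalytic centre in which 3 histidines hold the zinc ion. The coding stretch of this site is shown for each of the 7 MMPs because it is what makes them 1 family, and because counting tells such relatives apart only where their letters differ. Each stretch is 33 bases long and is read 5′ to 3′ on the strand of the gene, from GENCODE release 29 transcripts on GRCh38, with the codons of the 3 histidines in capitals.
MMP13: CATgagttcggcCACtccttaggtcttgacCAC
MMP1: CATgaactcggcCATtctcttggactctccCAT
MMP10: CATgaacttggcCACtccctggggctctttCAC
MMP7: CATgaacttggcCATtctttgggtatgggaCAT
MMP2: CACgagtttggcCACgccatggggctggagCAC
MMP14: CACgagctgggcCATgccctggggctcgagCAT
MMP15: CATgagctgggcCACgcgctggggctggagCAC
The MMP13 stretch lies at chr11:102952115-102952147 on the minus strand, within exon 5 of 10. Between 22 and 25 of its 33 bases were equal in the other MMPs (25 in MMP2, 24 in MMP15), and the longest unbroken run of equal bases was 9, in MMP10. Of the 2686 overlapping 31-base words of the MMP13 transcript, 0 occurred in a transcript of another gene, and the same held for MMP7, MMP14, MMP15, TIMP1 and TIMP3. MMP10 shared 125 words with MMP3, MMP1 shared 94 with the pseudogene WTAPP1, MMP2 shared 146 with AC007336.3, and TIMP2 shared 507 with CEP295NL and AC022966.1, so counts of these 4 genes are less certain.

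Total counts per library lay between 16606390 and 18864243, at which depth the limit that a count of 0 allows (3 counts) was 0.159 to 0.181 CPM. RBM10 itself had 1431, 1183 and 1469 normalized counts in sh-NC, against 537, 515 and 672 in shRBM10, with no overlap. A normalized count is the count divided by the relative library size after TMM scaling. Of 11 markers of epithelial and PC9 cells, 10 had a mean of at least 10 normalized counts, and the lung lineage factor NKX2-1 had 2 counts or fewer. The protocol text of the labels mentions retinas, but the photoreceptor transcription factor CRX had at most 3 counts, and 2 of 10 retina markers (NRL and PDE6A) reached that mean. Sh-NC replicate 2 stood apart from the other control libraries, with a Pearson correlation of 0.940 and 0.942 with replicates 1 and 3 on the log2 scale, against 0.993 between those. For GC content, the log2 count of each gene was taken relative to its mean over all libraries, so the slopes are relative to that mean. They were 0.13 and 0.14 per 10 percentage points of GC in sh-NC replicates 1 and 3, and 0.38 in replicate 2. In shRBM10 they were -0.49 and -0.31 in libraries A and B, and 0.15 in library C.

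MMP13, MMP15 and the 3 TIMPs were the members with more than 16 counts in any library. In such bulk RNA, fewer expressing cells and less RNA per cell cannot be told apart. MMP13 was 8.35-fold higher in shRBM10 than in sh-NC, TIMP3 was at 0.511 of its sh-NC level, and MMP15, TIMP1 and TIMP2 overlapped between the groups. MMP7 and MMP10 had under 10 counts in every library, and MMP1, MMP2 and MMP14 in at least 1 library. The filter on low counts kept 6 members (MMP13, MMP2, MMP15, TIMP1, TIMP2 and TIMP3) and removed the other 4. At an adjusted p under 0.05 by edgeR's quasi-likelihood test and an absolute log2 fold change over 1, 1 of the 6 was called (MMP13), where 0.0158% of the 12620 genes tested were. At the same limits without adjustment it was again 1, against 11.6% of all genes. Since the choice of members used this contrast, nothing is read from these counts.

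**Figure D1:**
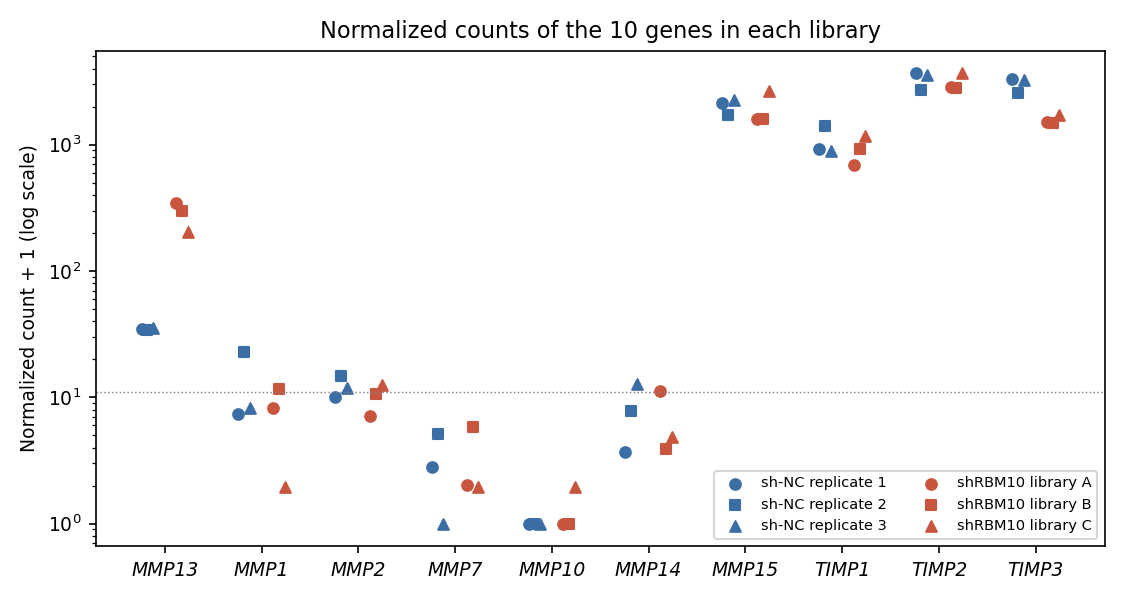
Normalized count plus 1 (log axis) of each of the 10 genes in each of the 6 libraries, sh-NC in blue and shRBM10 in red, with a dotted line at 10 normalized counts. MMP13 sits between 32.9 and 34.3 in sh-NC and between 201 and 341 in shRBM10, TIMP3 separates in the other direction, and the remaining 8 genes overlap.

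Among the secreted enzymes, MMP13 (collagenase 3, Entrez gene 4322) cleaves fibrillar collagens, above all type II. Its raw counts were 37, 24 and 38 for the controls, and the shRBM10 libraries A, B and C had 332, 312 and 209. As normalized counts these were 33.6, 32.9 and 34.3 against 341, 299 and 201, or 33.6 ± 0.714 (SD, n = 3) against 280 ± 71.9 (SD, n = 3). The lowest shRBM10 library therefore lay far above the highest control. The SD was larger in shRBM10, also in relation to its mean. The raw control counts, from 24 to 38, came close together only after scaling. The log2 fold change was 3.06 with a standard error of 0.33, rank 2 from the top among 12620 genes. It lay between 2.89 and 3.19 with any 1 library left out. Library C was the shRBM10 library with the least MMP13 and also the one with the least reduction of RBM10. Its slope on GC content (0.15) also differed from those of libraries A and B (-0.49 and -0.31). A link of MMP13 with the RBM10 level or with this slope was not tested.

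MMP1, MMP2, MMP7 and MMP10 were at or near the limit of detection. MMP1 (interstitial collagenase) had 7, 16 and 8 counts in sh-NC, against 7, 11 and 1 in shRBM10. MMP2 (gelatinase A), which cuts type IV collagen and denatured collagen, had 10, 10 and 12 counts in sh-NC, against 6, 10 and 12 in shRBM10. Its log2 fold change was -0.27 with a standard error of 0.41. The groups of both genes overlapped. MMP7 (matrilysin), the small epithelial MMP that lacks a hemopexin domain, had 2, 3 and 0 counts in sh-NC, against 1, 5 and 1 in shRBM10. MMP10 (stromelysin 2) was at 0 in 5 libraries and had 1 count in library C. A difference in these genes was not detectable at this depth, which does not show that they are equal. In the transcript table, 7 of the 10 genes had 1 transcript and 3 had 2. All MMP2 counts went to one of its transcripts in 4 libraries and to the other one in sh-NC replicate 2 and library B, and MMP1 counts were likewise split by library, so the deposited values of these genes do not resolve isoforms. TIMP1 divided evenly across libraries instead, with 88.0% to 90.8% of its counts on the same transcript.

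Of the membrane-type enzymes, MMP14 (MT1-MMP), the cell surface activator of pro-MMP2, had 3, 5 and 13 counts in sh-NC, against 10, 3 and 4 in shRBM10. MMP15 (MT2-MMP), a transmembrane relative, was the MMP with the most counts, 2348, 1250 and 2505 in sh-NC and 1545, 1656 and 2750 in shRBM10. Its normalized counts came to 2034 ± 287 (SD, n = 3) for the controls, against 1938 ± 609 (SD, n = 3). Both genes overlapped between groups, and library C held the highest MMP15 value of all 6. The log2 fold change of MMP15 was -0.07 with a standard error of 0.27, 0.02 with scaling by library size only, and from -0.41 (without library C) to 0.06 (without library A) with 1 library left out.

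Levels of different genes can be compared only per length, for which the authors' mean TPM per group was used. MMP15 had 33.8 TPM in sh-NC and 35.6 in shRBM10, and MMP13 had 0.84 and 8.05. MMP15 thus made up 95.3% of the summed TPM of the 7 MMPs in sh-NC and 80.1% in shRBM10, and MMP13 2.37% and 18.1%. The other 5 MMPs were each at 0.35 TPM or less in both groups. TIMP1 was at 113 and 117 TPM, TIMP2 at 61.8 and 64.0, and TIMP3 at 44.3 and 25.1. In sh-NC the order was therefore TIMP1, TIMP2, TIMP3, MMP15 and then MMP13, and in shRBM10 MMP15 came before TIMP3. These means carry no error here. For MMP15, TIMP1 and TIMP2 they were slightly higher in shRBM10, whereas the fitted log2 fold changes were -0.07, -0.20 and -0.09.

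TIMP1, a soluble inhibitor that also binds proMMP9, had 1008, 1025 and 982 counts in sh-NC, against 674, 965 and 1211 in shRBM10. Its normalized counts were 914, 1404 and 886 against 692, 925 and 1163, so that the groups overlapped and sh-NC replicate 2 held the highest value. The log2 fold change was -0.20 with a standard error of 0.28. TIMP2, which inhibits MMPs and takes part with MMP14 in the activation of pro-MMP2, had 4044, 1975 and 3916 counts in sh-NC, against 2782, 2910 and 3817 in shRBM10. Normalized, these were 3302 ± 522 (SD, n = 3) and 3103 ± 489 (SD, n = 3), which overlapped, with a log2 fold change of -0.09 and a standard error of 0.23. The sign for TIMP1 and TIMP2 was not stable. It turned to 0.05 and 0.07 with the GC trend removed, and that of TIMP2 to 0.0012 with scaling by library size only.

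TIMP3, the matrix-bound inhibitor, had 3645, 1885 and 3590 counts in sh-NC, against 1457, 1533 and 1772 in shRBM10. The normalized counts were 3306, 2581 and 3240 against 1496, 1469 and 1702, or 3042 ± 401 (SD, n = 3) against 1556 ± 128 (SD, n = 3). Each shRBM10 library lay below each control, although the raw count of sh-NC replicate 2 came close to that of library C. The log2 fold change was -0.97 with a standard error of 0.22, rank 250 from the bottom and short of the limit of 1. It ran from -1.15 (without sh-NC replicate 2) to -0.91 (without sh-NC replicate 1). Of the summed normalized counts of TIMP1 to TIMP3, TIMP3 was 38.6% to 42.3% in the controls and 26.1% to 29.7% in shRBM10. Among all genes tested, 30.1% did not overlap between groups (13.8% higher and 16.2% lower in shRBM10), and among the 6 members tested these were MMP13 and TIMP3.

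The ratio of MMP13 to its inhibitors can be formed within each library, where the total count cancels. A GC trend of the library does not cancel, as MMP13 (38.9% GC) and TIMP3 (48.7%) differ in GC content. MMP13 and TIMP3 are the 2 tested members that did not overlap between groups, so a shift in their ratio follows from that choice. MMP15, the MMP with the most counts, is not part of these ratios. TIMP3 had 98.5, 78.5 and 94.5 counts per MMP13 count in sh-NC and 4.39, 4.91 and 8.48 in shRBM10. MMP13 amounted to 0.408%, 0.450% and 0.425% of the summed normalized counts of TIMP1 to TIMP4 in sh-NC and to 6.49%, 5.50% and 2.94% in shRBM10. These count ratios are not corrected for gene length, and each is a comparison of libraries rather than of protein amounts. By the authors' mean TPM, the 7 MMPs summed to 35.5 in sh-NC and 44.4 in shRBM10, and TIMP1 to TIMP3 to 219 and 206.

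**Figure D2:**
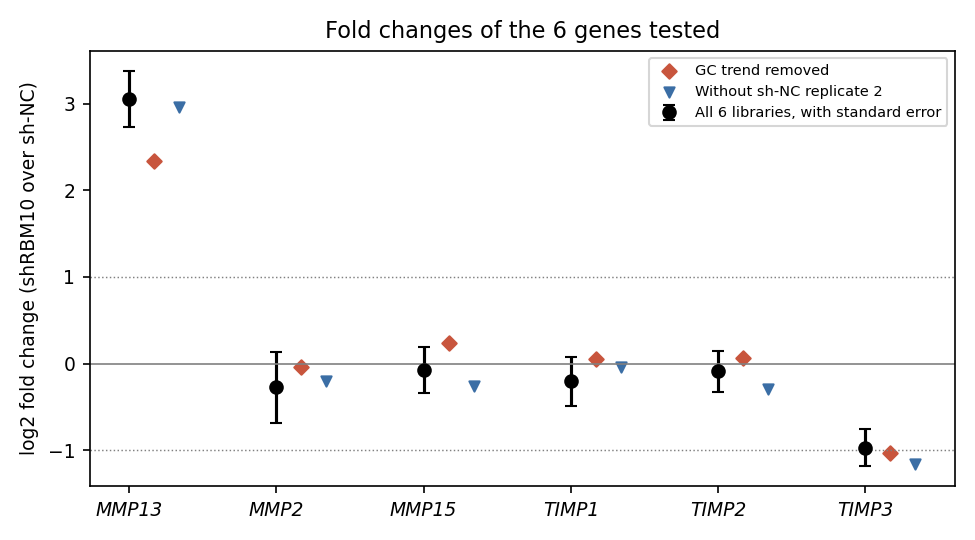
Log2 fold change (shRBM10 over sh-NC) of the 6 genes tested. Black points with bars are the fit to all 6 libraries with its standard error, red diamonds are values with the GC trend removed and blue triangles leave out sh-NC replicate 2, and dotted lines mark the limits of 1 and -1. MMP13 is at 3.06, 2.34 and 2.96 and TIMP3 at -0.97, -1.03 and -1.15, while MMP15, TIMP1 and TIMP2 change sign with the GC trend removed.

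Fold changes shifted with GC content, and the slopes differed between libraries. Relative to the mean of all libraries, those of libraries A and B were negative, those of library C and of the controls positive. The median log2 fold change was 0.77 over the 1688 genes with 35% to 40% GC, where MMP13 (38.9%) lies, and 0.11 over the 2099 genes with 45% to 50%, where TIMP3 (48.7%) lies. For 65% to 70%, where MMP15 (66.0%) lies, it was -0.38. With the GC trend of each library removed, the log2 fold change was 2.34 for MMP13, -1.03 for TIMP3 and 0.24 for MMP15. Library C had nearly the same GC slope as sh-NC replicates 1 and 3, and was set against these for that reason. Against their mean, it held 5.92-fold the MMP13 and 0.520 of the TIMP3, as normalized counts. MMP15 was at 1.20-fold, TIMP1 at 1.29-fold and TIMP2 at 1.02-fold. RBM10 was at 0.464 in this comparison of 1 library with 2. Over all 6 libraries, the log2 fold change of RBM10 was -0.96 with the GC trend removed, short of the limit of 1.

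**Figure D3:**
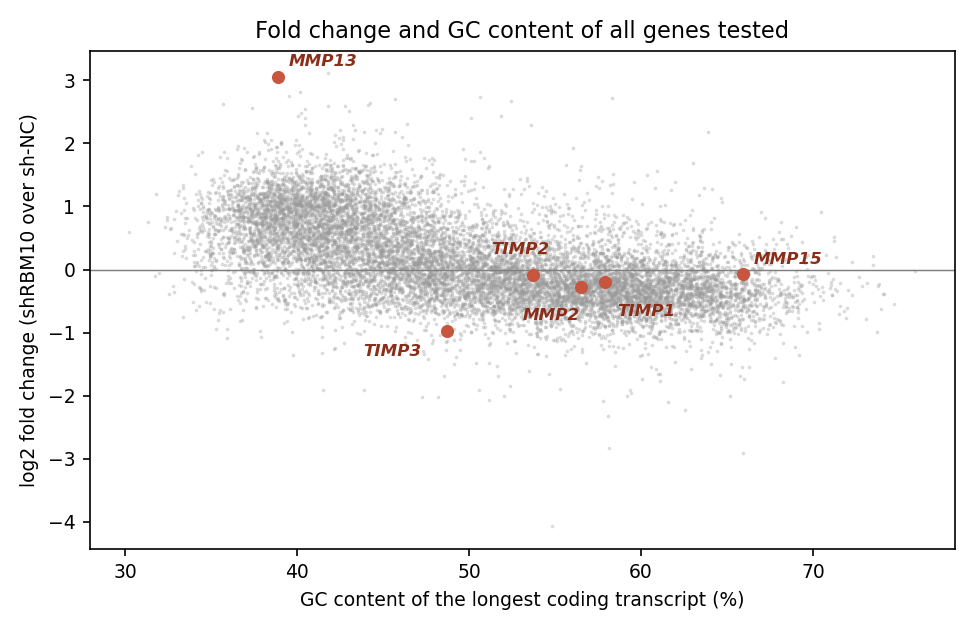
Log2 fold change (shRBM10 over sh-NC) of each gene with a GC content (grey, 12570 genes) against the GC content of its longest coding transcript in percent, with the 6 members tested in red. Fold changes fall as GC content rises, and MMP13 (3.06 at 38.9% GC) and TIMP3 (-0.97 at 48.7%) lie away from the bulk of genes of like GC content, MMP15, TIMP1, TIMP2 and MMP2 within it.

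On chromosome 11 (GRCh38), MMP13 (102942995 to 102955734, minus strand) closes a cluster of 9 MMP genes that starts with MMP7 and spans 435 kb. Of these, 5 are in the table (MMP7, MMP10, MMP1, MMP3 and MMP13), 4 of them members, and MMP13 alone had enough counts to be tested. The start of MMP1 (102789920 to 102798160, minus strand) lies 158 kb from that of MMP13, and MMP1 had at most 16 counts. MMP3, a stromelysin, had 1 count in 1 library. Of the genes that flank the cluster, BIRC2, an inhibitor of apoptosis, had a log2 fold change of 1.22 (SE 0.42, edgeR adjusted p = 0.165) and TMEM123 of 0.77 (SE 0.24, edgeR adjusted p = 0.156). DCUN1D5 on the MMP13 side had -0.31 (SE 0.28, edgeR adjusted p = 0.488). These flanking genes were picked for their position. BIRC2 and TMEM123 have 38.0% and 39.2% GC, and DCUN1D5 has 46.1%. The median log2 fold change was 0.77 over genes with 35% to 40% GC and 0.11 over those with 45% to 50%.

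The other members lie elsewhere on GRCh38: MMP2 at chr16:55389700-55506691 and MMP15 at chr16:58025566-58046901, MMP14 at chr14:22836557-22849027, TIMP1 at chrX:47582313-47586789, TIMP2 at chr17:78852977-78925387 and TIMP3 at chr22:32801701-32863043. TIMP1, TIMP3 and TIMP4 lie inside the synapsin genes SYN1, SYN3 and SYN2, on the opposite strand. SYN3 had 699, 404 and 698 normalized counts in sh-NC, against 229, 279 and 325 in shRBM10, with a log2 fold change of -1.11 (SE 0.30, edgeR adjusted p = 0.149), and it was looked up after the overlap was seen. SYN3 and TIMP3 thus both lay lower. The TIMP3 transcript shared 0 of its 4573 words of 31 bases with any other annotated transcript on either strand, so reads of the spliced transcripts differ in sequence. Unspliced SYN3 RNA is not covered by this comparison, and the strand setting of the counting is not given in the sources used here. SYN3 was at 5.43 and 2.68 mean TPM, against 44.3 and 25.1 for TIMP3. TIMP4, the fourth inhibitor, had 365, 448 and 447 counts in sh-NC, against 202, 263 and 297 in shRBM10. The groups did not overlap, and its log2 fold change was -0.85 (SE 0.31, edgeR adjusted p = 0.169). The TIMP4 transcript shared 140 of its 1620 words of 31 bases with SYN2, so its counts are less certain than those of TIMP3.

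RefSeq promoters of 300 bases (250 before and 50 after the start, GRCh38.p14) were at hand for MMP7, MMP10, MMP14, MMP15, TIMP1 and TIMP3. They were searched on both strands for TGAGTCA, the core letters bound by AP-1 factors of the FOS and JUN families, which are known to drive several MMP genes. Of these 6 promoters, 1 held it, that of MMP7, against 4.95% of 35116 promoters. It is shown from chr11:102530775-102530834 on the minus strand, with the match in capitals, 67 bases before the start.
MMP7: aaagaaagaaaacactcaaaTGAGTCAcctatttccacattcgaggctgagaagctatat
MMP7 stayed at 5 counts or fewer in every library. A match describes letters only.

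Of 6 further lists of related genes, 0 genes were called at an adjusted p under 0.05 by edgeR's quasi-likelihood test. The same test without adjustment, with an absolute log2 fold change over 1, is the limit for the following counts, set against 11.6% of all genes tested (10.1% higher and 1.53% lower in shRBM10). Among the other MMPs and TIMP4, 11 of 17 were in the table and 6 were tested, of which 0 passed that limit in edgeR and 0 in DESeq2, with 1 (TIMP4) at an unadjusted p under 0.05. MMP11 (stromelysin 3) had a log2 fold change of 0.42 (SE 0.31, edgeR adjusted p = 0.395), and its normalized counts overlapped. MMP9 (gelatinase B), the main secreted gelatinase beside MMP2, had 29 to 32 counts in sh-NC and 19 to 33 in shRBM10. The median log2 fold change was 0.04 in this list and -0.15 in the members tested, beside 0.03 over all genes.

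In the list of ADAM and ADAMTS proteases, 16 of 34 genes were tested. ADAM10 and ADAM9, which shed membrane proteins, and ADAM22, which lacks protease activity, were higher, and 0 were lower. ADAM10 had 552, 149 and 526 normalized counts in sh-NC, against 1346, 1338 and 566 in shRBM10. Its log2 fold change was 1.40 (SE 0.49, edgeR adjusted p = 0.169), and its groups did not overlap. The groups of the other two overlapped, since library C lay below the highest control. ADAM9 had 1747, 531 and 1696 against 4019, 3303 and 1563 normalized counts, with a log2 fold change of 1.16 (SE 0.47, edgeR adjusted p = 0.183). ADAM22 had 60.8, 27.4 and 31.6 against 110, 103 and 46.1, with a log2 fold change of 1.09 (SE 0.44, edgeR adjusted p = 0.181). ADAM10 in library C was close to sh-NC replicates 1 and 3, unlike MMP13, and with the GC trend removed or without sh-NC replicate 2, 0 of the list passed. All 3 genes have between 38.3% and 40.7% GC.

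Of 20 tested activators of pro-MMPs and their partners, 1 was higher and 1 lower. PLAT, tissue plasminogen activator, had 944, 876 and 876 normalized counts in sh-NC, against 238, 225 and 393 in shRBM10, with a log2 fold change of -1.65 (SE 0.28, edgeR adjusted p = 0.0894, DESeq2 adjusted p = 7.1e-05). HPN, the membrane serine protease hepsin, had a log2 fold change of 1.29 (SE 0.49, edgeR adjusted p = 0.176) at a mean of 7.88 and 18.9 normalized counts. Of 9 tested inhibitors other than TIMPs, TFPI2, a Kunitz-type inhibitor of plasmin and several MMPs, was lower, with 1301, 1987 and 1351 normalized counts against 519, 678 and 618. Its log2 fold change was -1.35 (SE 0.25, edgeR adjusted p = 0.102), without overlap of the groups. CST3 (cystatin C) had a log2 fold change of 0.04 (SE 0.26, edgeR adjusted p = 0.931).

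Of 27 tested transcription factors with known sites in MMP promoters, 1 was higher and 1 lower. FOSL1 (FRA1), a subunit of AP-1, had 1482, 1584 and 1419 normalized counts in sh-NC, against 548, 523 and 681 in shRBM10, with a log2 fold change of -1.36 (SE 0.22, edgeR adjusted p = 0.0894). Its groups did not overlap. With the GC trend removed, 0 of these factors were higher and 2 lower, FOSL1 and SNAI2. Of 13 tested matrix substrates, SPP1 (osteopontin), an adhesive glycoprotein that MMPs cut, was higher, with 1238, 1686 and 1294 against 3965, 3952 and 3143 normalized counts and a log2 fold change of 1.39 (SE 0.23, edgeR adjusted p = 0.0894). With the GC trend removed SPP1 had 0.75 and no longer passed, and the 1 gene of the list that did was COL1A1 (1.02), a fibrillar collagen chain named after this was seen. FN1 (fibronectin) had 0.54 (SE 0.45, edgeR adjusted p = 0.441) and LAMB3, a laminin chain, -0.46 (SE 0.30, edgeR adjusted p = 0.332). By DESeq2, 6 genes of these lists were called at an adjusted p under 0.05, among them PLAT, TFPI2, FOSL1, JUND and SPP1.

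The genes most like MMP13 across the 6 libraries, by Pearson's r of log2 normalized counts among 11060 genes with a mean of at least 50, were IFI44 (0.998), TRIM5 (0.997), MANSC1 (0.997), CHMP1B (0.997) and OSTM1 (0.996). These 6 points share libraries and the difference between groups, so the values are a description. IFI44 and TRIM5 are interferon-induced genes. IFI44 had 162 normalized counts on average in sh-NC and 662 in shRBM10, and OSTM1, a lysosomal membrane protein, had 267 and 504.

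RNA of other cell types could carry MMP or TIMP transcripts, so their markers were read in the same libraries. Of 10 fibroblast markers, 2 (COL1A1 and PDGFRB) had a mean of at least 10 normalized counts, the sum running from 58.9 to 126 in sh-NC and 109 to 204 in shRBM10, with COL1A2, COL3A1, FAP and THY1 at 2 counts or fewer. The endothelial sum was 100 to 188 in sh-NC and 49.3 to 69.9 in shRBM10, carried by CDH5 and VWF, with PECAM1 at 3 counts or fewer. The leukocyte sum was 2863 to 4148 and 2972 to 4014, carried by CD68 and CSF1R, and PTPRC had 7 counts or fewer. The epithelial sum ran from 571372 to 1031720 in sh-NC and from 463445 to 673683 in shRBM10, and the retina sum from 99.3 to 171 and 85.3 to 105. The part of these markers in the values of MMP13 and TIMP3 was not tested.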

How the data were processed

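RNA-seq of 6 PC9 samples was analysed, 3 sh-NC and 3 shRBM10. The authors deposited estimated counts, TPM and other measures for 16306 genes and 76563 RefSeq transcripts. Per-library values are the deposited estimated counts (87.5% whole numbers), which were rounded. The deposited TPM values were used only as the authors' mean per group, without an error. In each table, 18 columns of other measures per library were not used, nor were 6 columns of other group means in the gene table. The submitters' processing notes name hg38, and the aligner, the counting tool and its strand setting are not given in the sources used here. The labels' protocol text speaks of retinas and of more than 1 library kit, without saying which library used which.

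Columns of 2 shRBM10 libraries name the group but match no sample title, so they carry no replicate number. The labels number separate biosamples within each group, and the study states in general that experiments were repeated independently, without saying how the cultures for RNA-seq were set up. P-values measure only the spread between these samples, which may in part be technical.

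Genes were kept with filterByExpr and scaled by TMM. The quasi-likelihood test of edgeR (glmQLFit, then glmQLFTest) was run on all 6 libraries without a covariate, with Benjamini-Hochberg adjustment over 12620 genes. Versions were edgeR 4.0.16, limma 3.58.1 and R 4.3.3. The test was first run on simulated counts without a GC trend or an outlying library, so that run does not cover these features of the data. The standard error is the log2 fold change divided by the square root of F. Members, lists, tests and alternatives were chosen with earlier results of these data known. Genes named are the members, RBM10, list genes past both limits (unadjusted p under 0.05, log2 fold change beyond 1 either way; or, with fewer than 2, those with the highest mean), and the 5 genes most correlated with MMP13. MMP9, SYN3, the genes flanking the MMP cluster, JUND, SNAI2, COL1A1 and the marker genes were named in addition to this rule, and some genes that it names are not reported here. Alternatives were DESeq2 1.42.0, RLE or library-size scaling, no filter, at least 10 counts in every library, removal of a lowess trend (span 0.3) on GC content, and leaving out each library. GC content, positions and 31-base words come from GENCODE release 29. GC content was found for 99.6% of genes tested. The floor of 3 counts covers counting error only.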

Additional observations from a re-analysis of the deposited data

How the results depend on the processing

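Over all alternatives, MMP13 had a log2 fold change of 2.34 to 3.19 and TIMP3 one between -1.15 and -0.87. The number of genes called by edgeR (2) was 544 by DESeq2, 0 with library size only, 31 without a filter, 4 with the GC trend removed and 0 to 23 with 1 library left out (23 without sh-NC replicate 2, 5 without sh-NC replicate 1, 0 without any other). The number past the unadjusted limits (1465) was 576 with the GC trend removed and 574 to 2143 with 1 library left out (574 without library A, 813 without sh-NC replicate 2). The split of higher against lower genes was 305 to 271 with the GC trend removed, beside 1272 to 193. The members past these limits (1) were 2 with the GC trend removed and 1 to 2 with 1 library left out, since TIMP3 joined without sh-NC replicate 2 and without library C. The other MMPs and TIMP4 (0) ranged over 0 to 1 (TIMP4 without sh-NC replicate 1). The ADAM proteases (3) were 0 with library size only, 0 with the GC trend removed and 0 to 4 with 1 library left out (0 without sh-NC replicate 2, library A or library B). The activators (2) were 1 by DESeq2, 1 with at least 10 counts in every library, 3 without a filter, and 1 to 3 with 1 library left out. The inhibitors (1) were 2 without a filter and 1 to 2 with 1 library left out (2 without sh-NC replicate 2). The transcription factors (2) ranged over 2 to 3, and the matrix substrates (1) were 2 without a filter and 1 to 2 with 1 library left out (2 without library A). With the GC trend removed, the substrates and the transcription factors kept their counts but not all their genes. CST3 turned to -0.18 with the GC trend removed and ranged from -0.14 to 0.21 with 1 library left out, and the cause of these changes was not tested. Library size only moved the median of all genes from 0.03 to 0.16. No paired analysis was possible because the columns of 2 shRBM10 libraries carry no replicate number. Genes under 10 counts limit any statement on MMP1, MMP2, MMP7, MMP10 and MMP14.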
